A study of Mus musculus with 20 samples.

Results

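RNA samples from hippocampal cultures treated with AP5 (5 arrays) were set against samples treated with Ro25 (5 arrays), 10 of the 20 arrays of the study, chosen by their titles. All cultures were dissociated mouse hippocampal neurons kept in 6 well plates to day 21, and each was treated for 24 h. AP5 was given at 100 µM and Ro25, written Ro25-4891 in the labels, at 1 µM, so compound and dose cannot be told apart. The remaining arrays held 5 cultures with 100 nM NVP-AAM077 (NVP) and 5 with vehicle (control), and they entered the fit to estimate the spread. The strain, the age and the number of animals are not given in the sources used here. No label says whether the 5 cultures of each treatment were prepared from different animals, so p-values refer to the spread among these samples, part of which may be technical.

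AP5 is a competitive antagonist at the glutamate site of NMDA receptors, the calcium-permeable channels through which synaptic activity reaches the nucleus of a neuron. Calcium entry engages calcium/calmodulin-dependent kinases and the ERK pathway, which act on CREB and SRF at the promoters of immediate early genes. Their products, many of them transcription factors such as the EGR and NR4A families, are followed by a later set of secreted and synaptic proteins that includes BDNF. No subunit preference is given for Ro25 here, since the code in the labels could not be matched to a known compound.

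Each value is a log2 ratio of the sample (Cy5) to a universal mouse reference RNA (Cy3) on the same array. Ratios were compared between groups gene by gene, since one probe's level cannot be set against another's. Cultures were of mixed cell type by their markers. All 17 pan-neuronal markers were measured, with mean log2 ratios of 3.84 to 4.52 on AP5 arrays and 4.25 to 4.46 on Ro25 arrays, and all 20 astrocyte markers were measured, with means of 2.86 to 4.16 with AP5 and 3.25 to 4.08 with Ro25. Of 19 microglia and macrophage markers 13 were measured, with means of −2.56 to −2.40 with AP5 and −2.63 to −2.35 with Ro25. In such bulk RNA, fewer cells of a type and less RNA per cell cannot be told apart.

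One array stood apart. The first AP5 array (AP5 1) deviated from its group by 0.288 (root mean square, log2) against 0.154 to 0.213 for the other arrays of both groups, and its log2 ratios were compressed, with an SD of 1.43 against 1.59 to 1.69. The lists of neuronal markers, receptors, channels and astrocyte markers all had their lowest AP5 mean on it. Pan-neuronal markers averaged 3.84 there and 4.39 to 4.52 on the other AP5 arrays, and GABA-A receptor subunits averaged 3.39 there and 4.45 to 4.59 on the others. AP5 1 and Ro25 2 were also the only pair of an AP5 and a Ro25 array on the same slide, and they were scanned on a day of their own. Results are therefore given with that array and, where the call or size changes, without it.

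**Figure D1:**
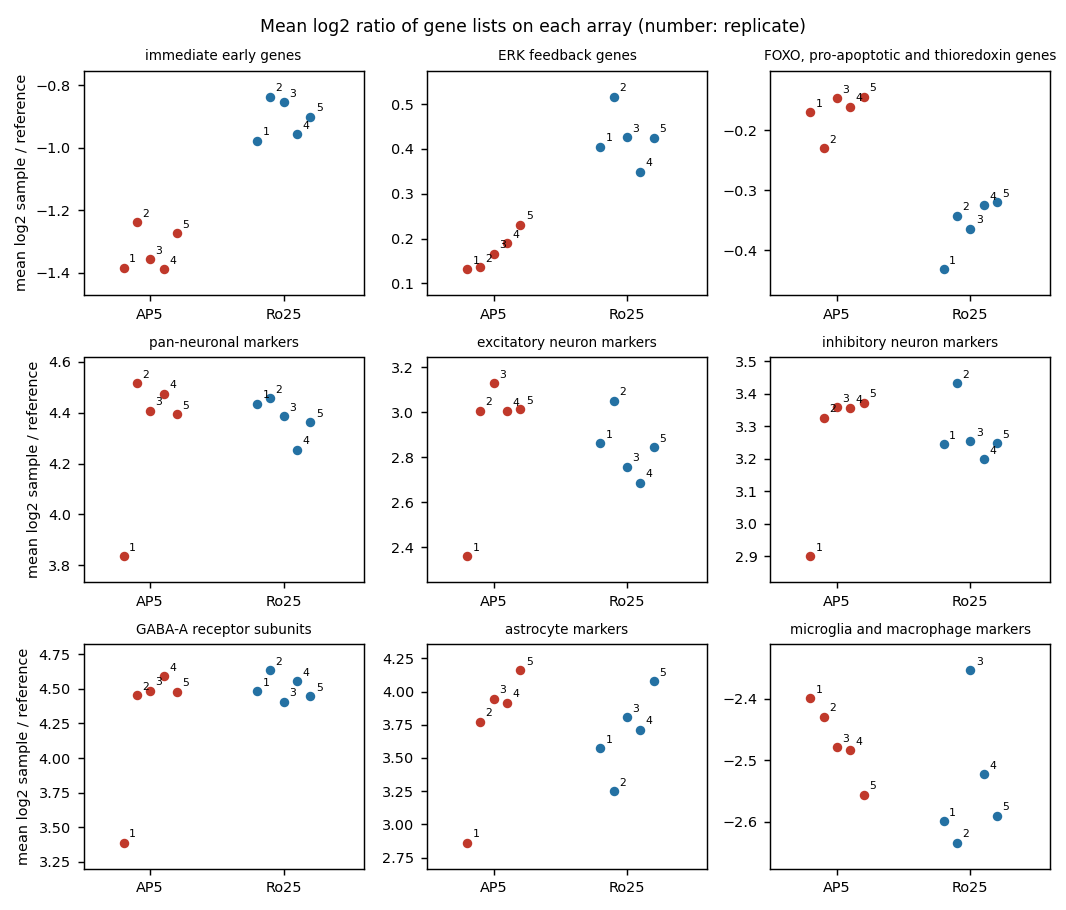
Mean log2 ratio of the sample to the reference RNA over the members of 9 gene lists, for each AP5 array (left) and each Ro25 array (right), with the replicate number beside each point. Immediate early and ERK feedback lists are lower on every AP5 array than on any Ro25 array, the pro-apoptotic list is higher, and AP5 1 lies below the other 4 AP5 arrays in the neuronal, GABA-A and astrocyte lists.

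Across all genes more decreases than increases passed with AP5 relative to Ro25. Of 19338 genes tested, 599 passed the threshold (limma, Benjamini-Hochberg adjusted p of 0.05, two-sided), 3.10% of those tested. Of these, 218 were higher with AP5 (1.13%) and 381 were lower (1.97%). The large differences leaned further to decreases: 41 genes changed at least 2-fold, 2 higher and 39 lower, and 160 changed at least 1.5-fold, 35 higher and 125 lower. Most changes were small, with a median absolute log2 difference of 0.43 among the genes that passed, and the median over all genes tested was −0.0061. For 473 of the 599 the AP5 and Ro25 arrays did not overlap, which held for 3.95% of all genes tested (1.34% higher and 2.60% lower with AP5). Of 248 that had several probes, 219 had all probes in 1 direction.

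The count and its split by direction depended on how slides were treated. With slide as a random block, 655 genes passed, 242 higher and 413 lower, and all 599 were among them. That fit still compares AP5 and Ro25 arrays across slides. With slide as a fixed block, 205 genes passed (1.06%), 32 higher and 173 lower, and 146 of these were among the 599, while 598 of the 599 kept their sign. The 599 were picked on the same arrays, which favours agreement in sign. In this fit AP5 2, AP5 3 and AP5 4 lay on slides without any other group and did not inform the difference. It rested on AP5 1 and on AP5 5, which was linked to Ro25 only through NVP arrays on slides 2 and 3. Without AP5 1 it rested on AP5 5 alone. Below, slide as a block means this fixed block. Within the first scan day, 3 AP5 against 4 Ro25 arrays gave 300 genes (1.55%), 123 higher and 177 lower. Of these, 270 (90%) had the same sign between AP5 1 and Ro25 2 on their own slide. The same share over all genes tested is not given here, so the 90% has no baseline. Without AP5 1, 544 genes passed, 227 higher and 317 lower, 463 of them shared. Without AP5 1 and Ro25 2 the split was nearly even, with 217 higher and 234 lower of 451. The slide block without AP5 1, in which no slide holds both groups, left 2 genes, Ifi203 and Tmem200a. In that fit 4 of the 94 named genes that had passed changed sign. When each array was only centred on its median instead of fitted by loess, 85 genes passed, 12 higher and 73 lower. With that centring Arc, Nr4a1, Egr3, Npas4, Bdnf, Tnfaip3, Relb, Ifi203, Ifi205 and Nos1 passed, whereas Ptgs2, Egr1, Dusp6, Dusp4, Plk3, Nrn1, Tef and the 4 pro-apoptotic genes that rose did not.

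**Figure D2:**
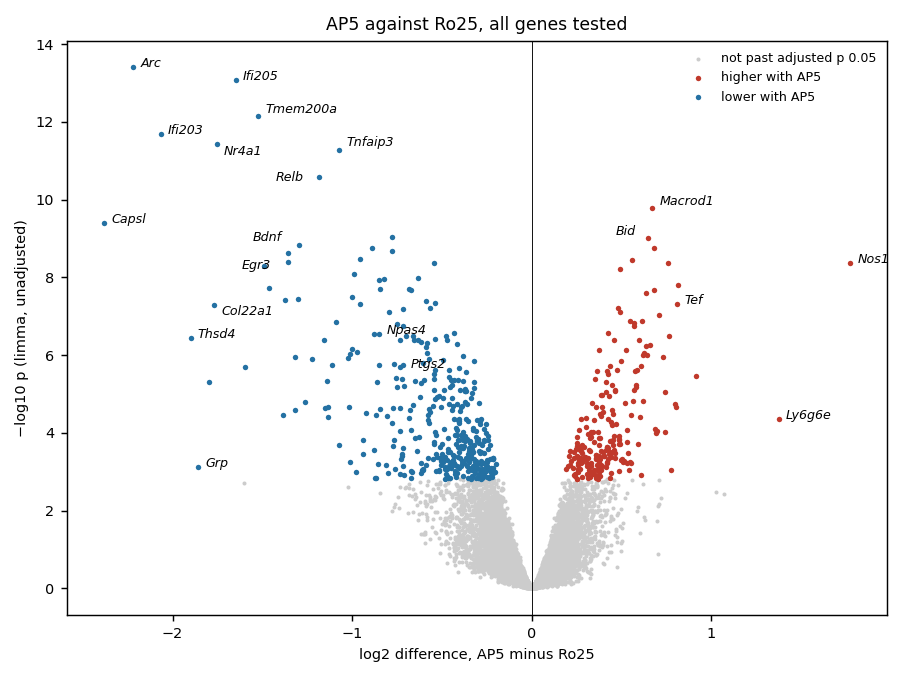
Log2 difference of AP5 minus Ro25 (horizontal) against −log10 of the unadjusted limma p (vertical) for the 19338 genes tested, with genes that passed coloured by direction (218 higher, 381 lower). Arc, the Ifi200 genes Ifi203 and Ifi205, Nr4a1 and Capsl lie far to the left, and Nos1 and Ly6g6e are the 2 genes at least 2-fold higher with AP5.

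**Figure D3:**
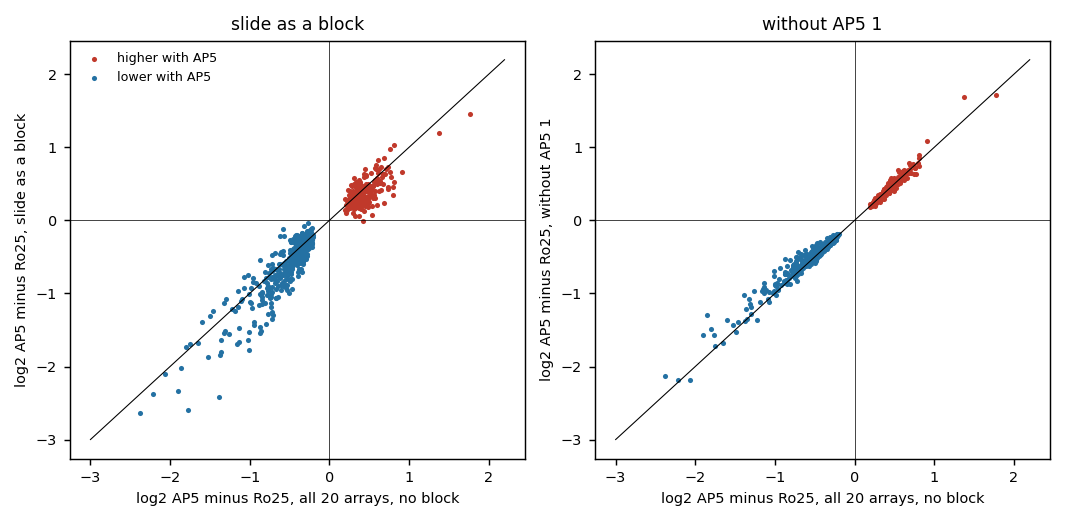
Log2 differences of AP5 minus Ro25 for the 599 genes that passed, from all 20 arrays with no block (horizontal), against the same with slide as a block (left, vertical) and without AP5 1 (right, vertical), with a line of equality. With the block 598 of 599 points keep their sign, and without AP5 1 the points stay close to the line.

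Immediate early genes, the first to be transcribed after neuronal activity, included 7 that were lower with AP5. Of 26 tested, 7 fell and 0 rose, beside 1.97% of all genes tested that fell and 1.13% that rose. This list and those below were drawn up with earlier results of these data known, so such shares describe the lists and do not test them. The median log2 difference was −0.18, against −0.0061 over all genes. The 7 were Arc, Nr4a1, Egr3, Npas4, Egr1, Nr4a2 and Egr4. Without AP5 1 the counts were the same, and with slide as a block 6 of the 26 passed, beside 1.06% of all genes.

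Arc encodes a cytoskeletal protein that controls AMPA receptor trafficking at synapses. Its log2 ratio was 0.21, 0.95, 0.10, 0.15 and 0.36 on AP5 arrays, against 2.41, 2.64, 2.63, 2.72 and 2.47 on Ro25 arrays. Every AP5 array was below every Ro25 array, and the 5 NVP and 5 control arrays averaged 2.77 and 3.00. The difference was −2.22 (SE 0.117, limma adjusted p = 7.44e-10), a 4.66-fold decrease, and −2.37 with slide as a block (limma adjusted p = 0.000204).

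Nr4a1, an orphan nuclear receptor, had log2 ratios of −2.85, −2.55, −2.96, −2.72 and −2.49 with AP5, against −1.15, −0.94, −0.90, −0.74 and −1.06 with Ro25. The groups were well separated, at −1.75 (SE 0.118, limma adjusted p = 1.47e-08). Its relative Nr4a2 had −0.29, −0.07, −0.14, −0.36 and −0.16 with AP5, against 0.58, 0.41, 0.32, 0.26 and 0.48 with Ro25, a smaller fall of 0.62 on the log2 scale (SE 0.0993, limma adjusted p = 0.000728). With slide as a block Nr4a2 was −0.60 and did not pass (limma adjusted p = 0.155).

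The zinc finger factors of the EGR family fell unequally. Egr3 had log2 ratios of 0.79, 0.90, 1.06, 0.65 and 0.80 with AP5, against 2.04, 2.69, 2.12, 2.14 and 1.99 with Ro25, a difference of −1.35 (SE 0.136, limma adjusted p = 3.81e-06). Egr1 had −2.89, −3.14, −3.61, −3.82 and −3.70 with AP5, against −2.16, −1.75, −2.25, −2.50 and −2.38 with Ro25, a difference of −1.22 (SE 0.178, limma adjusted p = 0.000265). In both genes the groups did not overlap. Egr2 was measured at −0.20 and did not pass (limma adjusted p = 0.53). Egr4 had 4.65, 6.49, 6.67, 6.32 and 6.29 with AP5, against 7.12, 7.82, 7.66, 7.55 and 7.20 with Ro25, a difference of −1.38 (limma adjusted p = 0.00324) that was −1.03 without AP5 1. With the scanner's own processed signals, which differ in both background subtraction and dye normalization, the difference in Egr4 was 0.25 (limma adjusted p = 0.845).

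Npas4, a transcription factor induced selectively by calcium entry in neurons, had no AP5 array on which it was well above background. It had log2 ratios of 0.05, 0.14, 0.02, −0.12 and −0.21 with AP5, against 0.96, 1.03, 0.67, 0.91 and 0.54 with Ro25, where all 5 arrays were above background. It was at least 1.77-fold lower with AP5, a bound that sets the Ro25 mean against the lowest signal counted as above background or the dim probe's own (limma adjusted p = 9.25e-05). Fos itself had −3.53, −3.44, −3.21, −3.37 and −2.42 with AP5, against −3.21, −3.29, −2.74, −3.01 and −2.07 with Ro25, and the groups overlapped (−0.33, SE 0.296, limma adjusted p = 0.766). Fos was highest on replicate number 5 in every group (−1.75 with NVP and −1.26 in control), and each AP5 value was below the Ro25 value of its number. Its SE includes that shared shift, so Fos is not shown to be unchanged. Jun (0.32), Fosb (0.02), Ier2 (0.00) and Junb (−0.42) did not pass either.

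**Figure D4:**
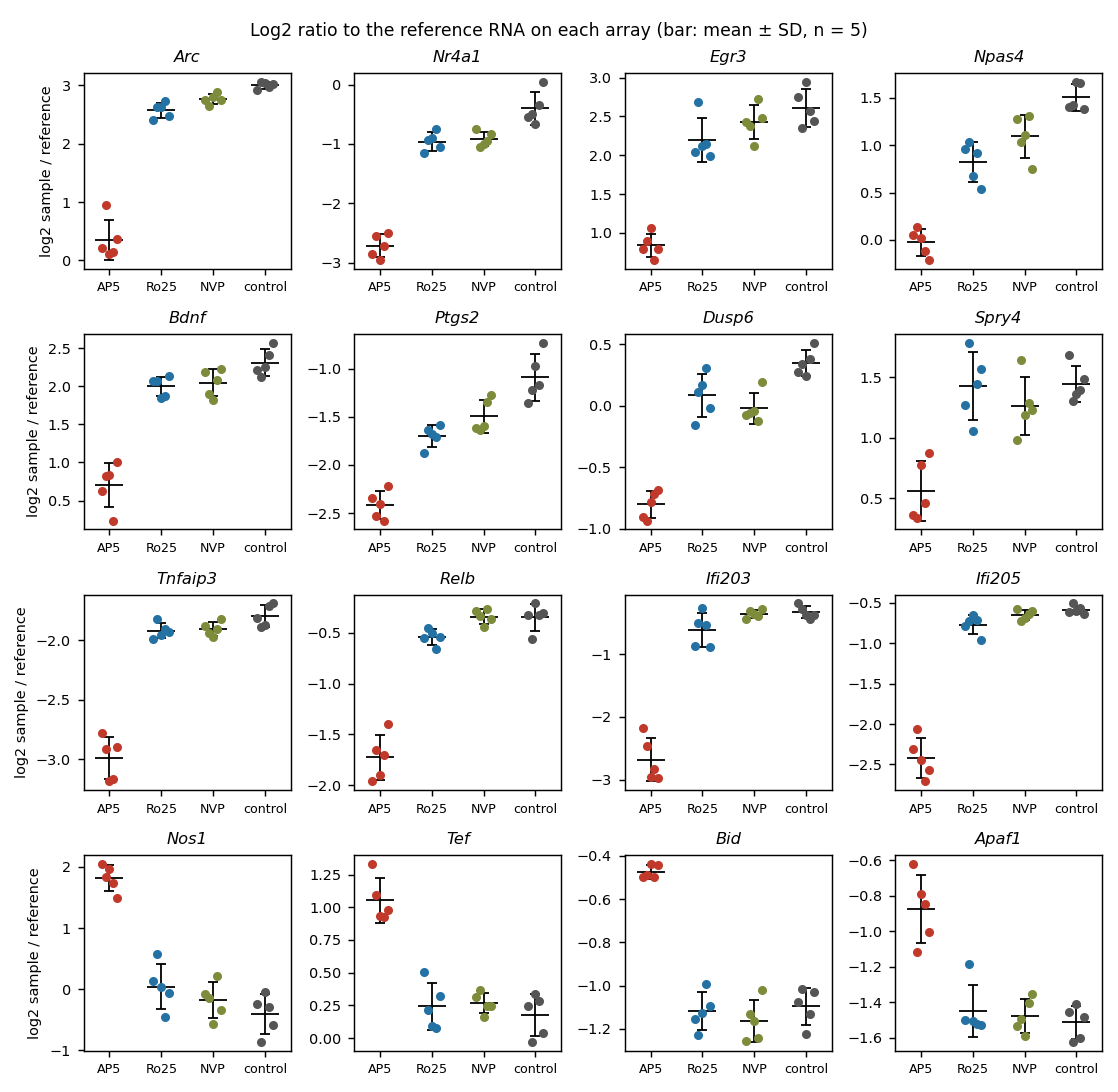
Log2 ratio of the sample to the reference RNA on each array for 16 genes, with AP5, Ro25, NVP and control from left to right, a horizontal bar at the mean and whiskers of 1 SD (5 arrays each). In all 16 genes the 5 AP5 arrays lie apart from the 5 Ro25 arrays, below them except in Nos1, Tef, Bid and Apaf1, and in Npas4 none of the AP5 arrays was well above background.

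Promoters of 4 immediate early genes that fell are shown because CREB and EGR proteins bind short words in such promoters. Those of Arc, Egr3 and Egr1, which had lower p than Nr4a2 and Egr4, are not shown, so the matches below do not cover them. They are RefSeq windows of 250 bases before to 50 after the start (GRCm38.p6), read 5′ to 3′ on the gene's strand, and capitals mark matches on either strand. Nr4a1 lies at chr15:101266596-101266895 on the plus strand. Npas4 lies at chr19:4989922-4990221, Nr4a2 at chr2:57123954-57124253 and Egr4 at chr6:85513540-85513839, all on the minus strand.
Nr4a1: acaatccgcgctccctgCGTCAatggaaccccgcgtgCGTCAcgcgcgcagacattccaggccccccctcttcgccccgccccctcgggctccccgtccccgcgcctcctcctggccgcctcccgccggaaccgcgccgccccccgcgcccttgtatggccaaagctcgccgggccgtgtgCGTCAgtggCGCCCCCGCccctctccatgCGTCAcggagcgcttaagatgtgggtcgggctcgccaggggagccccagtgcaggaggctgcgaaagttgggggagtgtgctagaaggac
Npas4: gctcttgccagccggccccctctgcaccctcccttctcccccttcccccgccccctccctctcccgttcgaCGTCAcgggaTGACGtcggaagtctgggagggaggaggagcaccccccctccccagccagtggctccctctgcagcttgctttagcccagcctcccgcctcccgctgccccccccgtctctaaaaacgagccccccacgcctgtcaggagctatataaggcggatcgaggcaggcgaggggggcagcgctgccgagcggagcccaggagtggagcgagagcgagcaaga
Nr4a2: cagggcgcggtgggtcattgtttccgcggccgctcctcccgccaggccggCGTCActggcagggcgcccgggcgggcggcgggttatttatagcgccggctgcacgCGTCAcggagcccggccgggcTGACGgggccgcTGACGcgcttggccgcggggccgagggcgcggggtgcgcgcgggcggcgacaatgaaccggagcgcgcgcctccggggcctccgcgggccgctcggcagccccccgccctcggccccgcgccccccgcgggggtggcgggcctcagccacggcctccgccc
Egr4: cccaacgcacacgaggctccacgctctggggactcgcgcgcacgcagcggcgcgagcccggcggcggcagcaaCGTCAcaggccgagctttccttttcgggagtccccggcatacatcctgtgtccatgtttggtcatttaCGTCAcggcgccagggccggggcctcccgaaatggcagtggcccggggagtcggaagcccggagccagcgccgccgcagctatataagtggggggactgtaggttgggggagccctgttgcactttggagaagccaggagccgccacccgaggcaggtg
TGACG, the core of the full CRE TGACGTCA, was found 4 times in Nr4a1, 2 times in Npas4, 4 times in Nr4a2 and 2 times in Egr4. Of 32851 promoters in the table, 20.8% hold it. An EGR word, GCGGGGGCG, occurred 1 time in Nr4a1 (2.91% of all promoters hold it). The full CRE (1.79%), the AP-1 word TGANTCA (7.81%) and the CArG box (1.63%) were not found in these 4 windows. A match describes the letters and is not a measured site.

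Several later activity-regulated genes were lower as well. Of 31 tested, 10 fell and 0 rose, beside 1.97% of all genes that fell. The list median was −0.30, which was −0.20 without AP5 1 with the same counts. They encode secreted factors (Bdnf, Nptx2, Nrn1, Adcyap1), an enzyme that processes prohormones (Pcsk1), signalling regulators (Rgs2, Rasgrp1, Plk3, Gadd45b) and the prostaglandin synthase Ptgs2. When slide was a block, 5 of the 31 passed, beside 1.06% of all genes.

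Bdnf, the neurotrophin that signals through TrkB, had log2 ratios of 0.63, 0.82, 0.83, 0.24 and 1.01 with AP5, against 2.07, 2.07, 1.84, 1.88 and 2.14 with Ro25. The highest AP5 array was well below the lowest Ro25 array, and the difference was −1.29 (SE 0.122, limma adjusted p = 2.37e-06). Plk3, a stress-responsive kinase, had −1.08, −1.14, −1.01, −1.10 and −0.97 with AP5, against −0.10, −0.27, −0.01, 0.04 and −0.19 with Ro25, a difference of −0.96 (SE 0.0948, limma adjusted p = 3.76e-06).

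Gadd45b, which takes part in activity-dependent DNA demethylation, fell by 0.84 on the log2 scale (limma adjusted p = 1.2e-05), and Nrn1, a membrane-anchored neuritogenic protein, fell by 0.63 (limma adjusted p = 7.67e-06). Adcyap1, the neuropeptide PACAP, differed by −1.32 (limma adjusted p = 0.0025). Rasgrp1, a calcium-responsive activator of Ras, differed by −1.01 (limma adjusted p = 0.000205). Nptx2, a pentraxin that clusters AMPA receptors, differed by −0.85 and Rgs2, a brake on G-protein signalling, by −0.80. With slide as a block Adcyap1, Rasgrp1, Nptx2 and Rgs2 kept their sign and did not pass (limma adjusted p of 0.27, 0.115, 0.0549 and 0.0692). Pcsk1 had 1.64 on AP5 1 and 2.66 to 3.28 on the other AP5 arrays, against 3.75 to 4.05 with Ro25, and its difference of −1.13 was −0.86 without AP5 1.

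Ptgs2, the inducible cyclooxygenase named in the title of the series, had log2 ratios of −2.34, −2.53, −2.41, −2.58 and −2.22 with AP5, against −1.88, −1.64, −1.68, −1.71 and −1.59 with Ro25. Every AP5 array was below every Ro25 array, and both of its probes fell. The difference was −0.71 (SE 0.107, limma adjusted p = 0.000337), and an exact two-sided permutation test over the 10 arrays gave p = 0.00794, the smallest that 5 against 5 arrays allow. It was −0.60 with slide as a fixed block and did not pass (limma adjusted p = 0.174). With slide as a random block it was −0.72 and passed (limma adjusted p = 0.000212), and signals as processed by the scanner gave −1.21. Of 17 prostaglandin pathway genes tested Ptgs2 alone passed, beside 3.10% of all genes. Ptgs1, the constitutive enzyme, was at −0.03, and the prostaglandin E synthase Ptges at 0.12.

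Feedback regulators of the ERK pathway moved in both directions. Of 18 tested, 6 fell and 2 rose, beside 1.97% and 1.13% of all genes, with a list median of −0.25, and the counts were the same without AP5 1. Those that fell were the phosphatases Dusp6, Dusp4 and Dusp1, which remove phosphate from MAP kinases, and the Sprouty and Spred proteins Spry4, Spry1 and Spred3, which restrain signalling above ERK. Those that rose were Spred1 and Dusp14.

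Dusp6, which acts on ERK itself, had log2 ratios of −0.90, −0.94, −0.78, −0.72 and −0.68 with AP5, against −0.15, 0.11, 0.17, 0.30 and −0.02 with Ro25. The groups did not overlap, at −0.89 (SE 0.0849, limma adjusted p = 2.46e-06). Dusp4 differed by −1.09 (SE 0.137, limma adjusted p = 5.13e-05) and Spry4 by −0.86 (SE 0.139, limma adjusted p = 0.000714). Spred1 was higher, at 0.97, 0.95, 0.81, 0.92 and 1.00 with AP5 against 0.53, 0.56, 0.47, 0.30 and 0.72 with Ro25, a difference of 0.41 (SE 0.0665, limma adjusted p = 0.000713). The slide block left 3 of the 18, Dusp6, Dusp4 and Spry4, beside 1.06% of all genes. The same fit gave Spred1 0.46 and Spry1 −0.47, and neither passed (limma adjusted p of 0.112 and 0.121).

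NF-kB is a dimeric transcription factor held in the cytoplasm by IκB proteins, and several of its own inhibitors are among its targets. Of 17 genes tested in this list 4 fell, beside 1.97% of all genes, and 0 rose, and the list median was 0.02. The genes that fell were not the inflammatory ones. They were Tnfaip3 (the ubiquitin-editing enzyme A20), the subunit Relb, and the inhibitors Nfkbie and Nfkbib.

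Tnfaip3 had log2 ratios of −2.78, −2.91, −3.19, −3.17 and −2.90 with AP5, against −1.99, −1.82, −1.95, −1.90 and −1.93 with Ro25. Relb had −1.96, −1.66, −1.90, −1.71 and −1.40 with AP5, against −0.55, −0.46, −0.50, −0.66 and −0.54 with Ro25. Both were lower on all 5 AP5 arrays, with differences of −1.07 (SE 0.0735, limma adjusted p = 1.72e-08) for Tnfaip3 and −1.18 (SE 0.0887, limma adjusted p = 7.26e-08) for Relb. Nfkbie differed by −0.55 (limma adjusted p = 3.81e-06) and Nfkbib by −0.21 (limma adjusted p = 0.0214). Nfkb1 (−0.12), Rela (0.01), Nfkbia (−0.18), Tnf (0.09) and Ccl2 (0.07) did not pass. The slide block left 3 of the 17, beside 1.06% of all genes, and Nfkbib did not pass there (limma adjusted p = 0.238).

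Promoters of Tnfaip3 and Nfkbie, the NF-kB genes of lowest p that have an entry in the table, are shown for their kappaB words, a choice made after their values were seen. Tnfaip3 lies at chr10:19015361-19015660 on the minus strand and Nfkbie at chr17:45555450-45555749 on the plus strand (GRCm38.p6), with matches to the kappaB consensus on either strand in capitals.
Tnfaip3: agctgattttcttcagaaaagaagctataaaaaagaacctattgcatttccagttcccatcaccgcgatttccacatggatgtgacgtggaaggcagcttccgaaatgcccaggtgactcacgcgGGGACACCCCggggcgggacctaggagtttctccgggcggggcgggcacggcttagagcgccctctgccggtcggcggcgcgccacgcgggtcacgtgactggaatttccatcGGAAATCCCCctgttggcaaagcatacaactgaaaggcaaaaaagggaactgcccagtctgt
Nfkbie: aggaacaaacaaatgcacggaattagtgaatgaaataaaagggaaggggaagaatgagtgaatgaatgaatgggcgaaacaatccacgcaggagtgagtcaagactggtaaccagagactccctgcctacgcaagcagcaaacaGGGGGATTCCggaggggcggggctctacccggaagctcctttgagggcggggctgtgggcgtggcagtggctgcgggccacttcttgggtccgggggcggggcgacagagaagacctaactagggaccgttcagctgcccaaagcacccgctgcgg
The consensus was found 2 times in Tnfaip3 and 1 time in Nfkbie, and 4.51% of all promoters hold it. It was not found in the window of Nfkbib.

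Members of the Ifi200 family, a cluster of related genes that encode DNA-sensing PYHIN proteins, showed some of the largest decreases. Of 10 listed, 5 were tested, 3 fell, beside 1.97% of all genes, and 0 rose. The family was listed with earlier results of these data known, so this share is not a test of it. Ifi203 had log2 ratios of −2.19, −2.46, −2.96, −2.83 and −2.98 with AP5, against −0.87, −0.51, −0.26, −0.54 and −0.89 with Ro25. Ifi205 had −2.31, −2.06, −2.45, −2.71 and −2.56 with AP5, against −0.79, −0.72, −0.66, −0.71 and −0.97 with Ro25. Neither gene's groups overlapped, and the differences were −2.07 (SE 0.135, limma adjusted p = 9.89e-09) for Ifi203 and −1.65 (SE 0.0903, limma adjusted p = 8.18e-10) for Ifi205. Ifi204 differed by −0.41 (limma adjusted p = 0.00385) and did not pass with slide as a block (limma adjusted p = 0.17), while Ifi202b (0.06) and Ifi209 (0.12) did not pass. These paralogs are close in sequence and a probe may read more than 1 of them, so which member changed is uncertain. Of 20 interferon-stimulated genes, 0 passed, with a median of 0.18.

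Several pro-apoptotic genes were higher with AP5. In the list of FOXO, pro-apoptotic and thioredoxin genes 4 of 20 rose, beside 1.13% of all genes, and 0 fell. The list median was 0.14, and the counts were the same without AP5 1. With slide as a block 2 of the 20 passed, beside 1.06% of all genes. Bid, a BH3-only activator of mitochondrial death, had log2 ratios of −0.50, −0.49, −0.44, −0.50 and −0.44 with AP5, against −1.15, −1.23, −1.13, −0.99 and −1.09 with Ro25. The difference was 0.65 (SE 0.0597, limma adjusted p = 1.76e-06). Apaf1, the scaffold of the apoptosome, was higher by 0.57 (SE 0.0879, limma adjusted p = 0.000441), with −0.62, −1.12, −0.79, −0.85 and −1.01 with AP5 against −1.50, −1.19, −1.51, −1.52 and −1.53 with Ro25. Its lowest AP5 array exceeded its highest Ro25 array only narrowly. The BH3-only genes Bbc3 (0.62, limma adjusted p = 0.00177) and Pmaip1 (0.52, limma adjusted p = 0.0019) rose too, and with slide as a block they did not pass (limma adjusted p of 0.172 and 0.259). Txnip (0.52), Hrk (0.45), Bcl2l11 (0.11), Bax (−0.17) and Foxo3 (0.03) did not pass. Cycs, the cytochrome c gene, moved the other way at −0.38 (limma adjusted p = 0.000698) and did not pass with slide as a block (limma adjusted p = 0.158).

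Nos1, the neuronal nitric oxide synthase that is tethered to NMDA receptors, had the largest increase of all genes named. Its log2 ratio was 2.05, 1.83, 1.96, 1.74 and 1.50 with AP5, against 0.13, 0.57, 0.03, −0.46 and −0.07 with Ro25. The groups did not overlap, and NVP and control arrays averaged −0.18 and −0.40. The difference was 1.77 (SE 0.179, limma adjusted p = 3.81e-06), a 3.42-fold increase, and 1.45 with slide as a block (limma adjusted p = 0.0278). It was the 1 gene that passed of 7 tested in the nitric oxide list, beside 3.10% of all genes. In that list the synthase Nos3 was at 0.21 and the guanylate cyclase subunit Gucy1b1 at −0.49.

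Tef, a PAR bZIP factor of the clock output, had log2 ratios of 1.33, 1.09, 0.94, 0.92 and 0.98 with AP5, against 0.51, 0.21, 0.09, 0.08 and 0.32 with Ro25 (0.81, SE 0.0949, limma adjusted p = 2.25e-05). It was the 1 gene of 21 clock genes that passed, beside 3.10% of all genes. Its relatives Dbp (0.30) and Hlf (0.38) and the core clock genes Per1 (0.04), Per2 (−0.22) and Arntl (0.15) did not pass.

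Among the other large increases, Ly6g6e, a surface protein of the LY6 family, had 1.28, 2.61, 2.88, 3.28 and 2.53 with AP5, against 1.29, 0.50, 0.88, 1.48 and 1.55 with Ro25. The groups overlapped through AP5 1, and the difference of 1.37 (SE 0.263, limma adjusted p = 0.00386) was 1.68 without that array. Rasl11b, a small Ras-like GTPase, was higher by 0.91 (limma adjusted p = 0.000578) and Inpp5k, an inositol phosphatase, by 0.81 (limma adjusted p = 1.06e-05). Genes that act on transcription or kinase signalling included Hdac4, a class II histone deacetylase that shuttles with activity (0.74, limma adjusted p = 0.00737), Rps6ka5, the nuclear kinase MSK1 downstream of ERK (0.74, limma adjusted p = 0.00113), and Pkia, an inhibitor of protein kinase A (0.73, limma adjusted p = 0.000244). Rasl11b, Inpp5k, Hdac4, Rps6ka5 and Pkia did not pass with slide as a block (limma adjusted p of 0.0685, 0.088, 0.137, 0.212 and 0.261). Ssr3, a translocon-associated subunit (0.76, limma adjusted p = 3.81e-06), and Fam107b (0.71, limma adjusted p = 3.76e-05) passed there as well. Upf2, a nonsense-mediated decay factor, was at 0.77 (limma adjusted p = 9.83e-05), while the authors' value table, which held a different probe for it, gave −0.04. The rest of the 15 largest increases, C2cd4c, Parm1, the transcript AK083983 and Nod1, lay between 0.70 and 0.80, and with slide as a block they did not pass (limma adjusted p of 0.408, 0.410, 0.238 and 0.275). AK083983 did not pass without AP5 1 (limma adjusted p = 0.092).

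Capsl, a calcium-binding protein listed as an ependymal marker, had the largest decrease when AP5 1 was included. It had 1.24, 2.44, 2.77, 2.24 and 2.63 with AP5, against 4.67, 4.61, 4.20, 5.04 and 4.70 with Ro25. The difference was −2.38 (SE 0.208, limma adjusted p = 8.35e-07), a 5.21-fold decrease. Without AP5 1 it was −2.13, smaller than the decreases of Ifi203 (−2.19) and Arc (−2.18). The other 4 ependymal markers tested did not pass, with the ciliogenesis factor Foxj1 at 0.04, Rsph1 at −0.04 and Ak7 at −0.03. Thsd4, a matrix protein, had 1.01 on AP5 1 and 2.09 to 3.20 on the other AP5 arrays, against 4.05 to 4.36 with Ro25, so its difference of −1.90 (limma adjusted p = 0.000106) was −1.57 without AP5 1. Col22a1, a collagen, had 0.92 on AP5 1 and 1.64 to 2.13 on the other AP5 arrays, against 2.91 to 3.88 with Ro25. Its difference of −1.77 (limma adjusted p = 2.25e-05) was −1.56 without AP5 1. It was the 1 gene of 26 collagen and matrix genes that passed, beside 3.10% of all genes.

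Tmem200a, a transmembrane protein, had log2 ratios of 0.91, 1.20, 1.42, 1.45 and 1.31 with AP5, against 2.52, 2.96, 2.90, 2.86 and 2.68 with Ro25 (−1.52, SE 0.0938, limma adjusted p = 4.69e-09). Cyp26b1, which degrades retinoic acid, had −0.09, −0.49, 0.16, 0.05 and −0.23 with AP5, against 1.03, 1.79, 1.19, 1.07 and 1.19 with Ro25 (−1.37, SE 0.158, limma adjusted p = 1.92e-05). Both genes were separated on all arrays. Galnt15, a glycosyltransferase (−1.49, limma adjusted p = 4.22e-06), and Tcim (−1.46, limma adjusted p = 1.2e-05) also fell, and Tcim did not pass with slide as a block (limma adjusted p = 0.0638).

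Grp, gastrin-releasing peptide, had 1.48 on AP5 1 and 4.02 to 4.66 on the other AP5 arrays, against 4.77 to 6.31 with Ro25. The difference of −1.86 (SE 0.468, limma adjusted p = 0.0306) was −1.30 without AP5 1 (limma adjusted p = 0.036), and it did not pass with slide as a block (limma adjusted p = 0.112). The remaining members of the 15 largest decreases were the unnamed transcript ENSMUST00000067087 (−1.80) and the probe A_52_P139439 (−1.60). They were at −1.49 and −1.37 without AP5 1, and neither passed with slide as a block (limma adjusted p of 0.0921 and 0.118). Neither of these nor Grp passed with the scanner's own processed signals.

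Apart from Npas4, the largest bounds were small. Pbp2 was at least 1.65-fold lower and Pebp4 at least 1.47-fold lower with AP5, and in both no AP5 array was well above background (limma adjusted p of 0.0184 and 0.00327). AK079958 was at least 1.30-fold higher and Zfp750 at least 1.26-fold higher with AP5, and in both no Ro25 array was well above background (limma adjusted p of 0.00956 and 0.0341). None of these 4 passed with slide as a block, and Zfp750 did not pass without AP5 1 (limma adjusted p = 0.089).

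NMDA receptor subunits did not pass in this comparison. Of 7 tested 0 passed, with a median of −0.06. The obligate subunit Grin1 had 0.65, 1.01, 0.97, 1.23 and 0.82 with AP5, against 0.98, 1.56, 1.00, 0.51 and 0.81 with Ro25, and the groups overlapped (−0.04, SE 0.173, limma adjusted p = 0.976). Grin2a had 0.45, 0.61, 0.75, 0.61 and 0.83 with AP5, against 0.97, 1.31, 0.69, 0.59 and 0.97 with Ro25 (−0.26, SE 0.133, limma adjusted p = 0.443). Grin2b was at −0.06 (SE 0.218, limma adjusted p = 0.967). With slide as a block 1 of the 7 passed, beside 1.06% of all genes. It was the subunit Grin3a (−0.82, limma adjusted p = 0.0414), which was at −0.30 without the block (limma adjusted p = 0.33) and at −0.15 without AP5 1.

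Likewise 0 of 9 AMPA and kainate subunits, 0 of 6 metabotropic glutamate receptors, 0 of 12 GABA-A subunits, 0 of 20 calcium, sodium and HCN channels and 0 of 18 synaptic vesicle genes passed. Of 18 potassium channels 1 passed, beside 3.10% of all genes. It was Kcnv1, a modifier subunit (−0.97, limma adjusted p = 0.000189). Of 18 postsynaptic scaffold genes 1 passed, beside the same 3.10%. It was the kinase subunit Camk2g (0.25, limma adjusted p = 0.00925), and it did not pass with slide as a block (limma adjusted p = 0.301). These lists moved with AP5 1: the GABA-A median was −0.22 with it and 0.03 without it, and −0.64 with slide as a block. In that fit 1 of the 12 GABA-A subunits passed, beside 1.06% of all genes. The NMDA receptor median was 0.04 without AP5 1 and −0.65 with slide as a block, a fit in which AP5 1 weighs heavily because it is the AP5 array that shares a slide with Ro25.

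Cell cycle genes had small differences, nearly all of them negative. Of 44 tested 42 had a negative difference, with a median of −0.23 against −0.0061 over all genes. Other lists were as one-sided, with 17 of 18 ribosomal protein genes and 11 of 12 GABA-A subunits negative, and 19 of 20 interferon-stimulated genes positive. Of the 44, 3 passed, beside 1.97% of all genes that fell. They were Cdt1, a DNA replication licensing factor (−0.42), Ccna2, cyclin A (−0.41), and Mcm6, a helicase subunit (−0.39). Cdt1 had −3.75, −3.82, −3.84, −3.80 and −3.95 with AP5, against −3.53, −3.41, −3.30, −3.19 and −3.64 with Ro25, close but not overlapping (limma adjusted p = 0.0066). None of the 3 passed with slide as a block (limma adjusted p of 0.111, 0.272 and 0.147). Mki67 was at −0.31 and did not pass (limma adjusted p = 0.548). Without AP5 1 the median was −0.24 and 4 passed, with the helicase subunit Mcm2 added (−0.31, limma adjusted p = 0.0487, against −0.28 and 0.058 with that array).

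Of 24 cholesterol synthesis genes 21 were negative, with a median of −0.23, and 1 passed, beside 3.10% of all genes. It was Hmgcs1, the synthase ahead of HMG-CoA reductase (−0.55, limma adjusted p = 0.0221). Of 24 ATF4 and unfolded protein response genes 2 were lower with AP5 than with Ro25, beside 1.97% of all genes. They were the transcription factors Atf4 (−0.58, limma adjusted p = 0.00412) and Atf5 (−0.43, limma adjusted p = 0.00845). Neither passed with slide as a block (limma adjusted p of 0.777 and 0.181). Atf5 averaged −0.845 with AP5, −0.732 with NVP, −0.699 in control and −0.417 with Ro25, so Ro25 was the group farthest from control. Of 24 growth factor genes Pdgfb alone passed (−0.66, limma adjusted p = 9.83e-05), beside 3.10% of all genes. Of 24 glycolysis and hypoxia genes Ndrg1 alone passed (0.69, limma adjusted p = 0.00643), beside the same 3.10%. In the lists of SRF-type actin genes (16 tested), ribosomal protein genes (18) and heat shock genes (13), 0 passed.

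Markers of cell types mostly did not pass. Of 17 pan-neuronal, 13 excitatory, 16 inhibitory, 20 astrocyte, 13 reactive astrocyte, 13 oligodendrocyte lineage, 9 radial glia and progenitor, 9 endothelial and pericyte and 12 fibroblast and meningeal markers, 0 passed. Neurod6, a bHLH factor of pyramidal neurons, named after its value was seen, passed without AP5 1 (−0.63, limma adjusted p = 0.0462) and under the slide block (−1.93, limma adjusted p = 0.0384), but not with all arrays and no block (−1.03, limma adjusted p = 0.0654). Gfap, the astrocyte filament protein, ranged from 2.82 to 6.58 with AP5 and from 3.50 to 6.45 with Ro25 (−0.01, SE 0.647, limma adjusted p = 0.996), so a difference of even a large size was not detectable. Of 13 microglia and macrophage markers 1 rose, beside 1.13% of all genes, with a list median of 0.02. It was Csf1r, the receptor of their survival factor (0.44, SE 0.0878, limma adjusted p = 0.00508). Csf1r did not pass with slide as a block (0.19, limma adjusted p = 0.559).

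**Figure D5:**
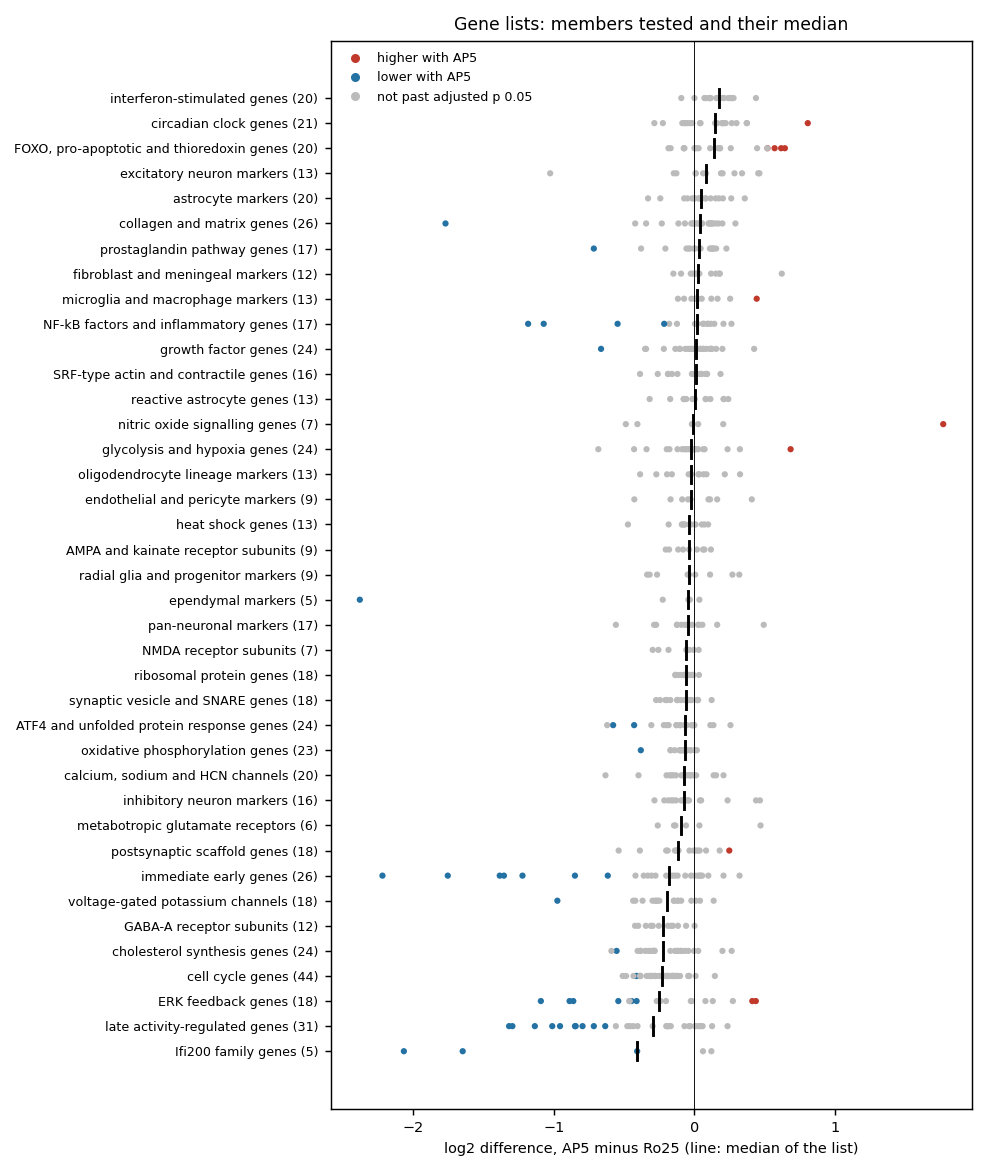
Log2 difference of AP5 minus Ro25 for every tested member of the 39 gene lists (number tested in parentheses), with a black line at each list's median and members that passed coloured by direction. Lists at the bottom, among them late activity-regulated, ERK feedback and Ifi200 genes, have the lowest medians, and most members of every list did not pass except in the Ifi200 family.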

How the data were processed

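Samples were grouped by title, 5 AP5 and 5 Ro25 arrays among 20. The authors deposited scanner output of 2-colour Agilent arrays, whose spot intensities are linear; per the file headers the extraction software was Feature Extraction 10.7.3.1 (11.0 per the submitters' processing notes). The scanner's own log10 ratio, deposited by the authors in the same files, is red over green after its background subtraction and dye normalization, and served as an alternative. Samples were in Cy5 and the common reference in Cy3, per the labels, and dyes were not swapped. A value table that the authors deposited gives log2 ratios for 20674 probes. Over 11987 probes above background it followed the log2 ratios of the scanner's processed signals, with correlations of 0.954 to 0.961 and slopes of 0.717 to 0.746. This settles its direction but not its scale, so the size of its differences may not compare with those given here. Its centring is unknown, with column medians of 0.0302 to 0.0626.

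Intensities were background-corrected (normexp, offset 50), normalized within arrays (loess) and fitted with limma 3.58.1 in R 4.3.3 (data.table, version 1.17.8), with a mean per group over 20 arrays. Outlier-flagged spots were left out (86 to 172 per array over the 20 arrays), which left 48 values of 36 genes missing, and 0 spots were saturated. Probes were kept if their red signal was well above background on 5 or more arrays (28498 of 41174). A gene was read from its brightest probe, and names came from a RefSeq table (GRCm38.p6). Red was above background at 58.6 to 69.3% of probes on these 10 arrays. The number of arrays limits the precision.

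Named genes were the 15 largest rises and falls above background on at least 3 arrays of both groups, up to 3 bounds per direction, 12 chosen genes and up to 4 members that passed per list. Other list members, the lowest p-values outside the lists, and Nab1 and Nab2 were added after their values were seen. Members and lists were chosen with earlier results of these data known. On simulated data for this comparison (19338 genes), limma called 79% of 100 genes with a 1.5-fold change and 96% of 100 with a 2-fold change, and unchanged genes made up 6.42% of its 187 calls. Slides (7) and scan days (3) came from the file headers. Alternatives covered background correction, normalization, the authors' values, filters, probe choice, slide, scan day, replicate number and leaving out each array.

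Same-numbered AP5 and Ro25 arrays, in order of number, deviated together with correlations of −0.052, −0.055, 0.088, 0.346 and 0.763 over 19302 genes. The main fit therefore did not pair samples by number. Number 5 did carry a shift common to all groups. Heat shock genes averaged 0.15 (AP5), 0.18 (Ro25), 0.19 (NVP) and 0.17 (control) on it, and were negative on every other array. Whether number 5 marks a shared preparation or batch was not tested.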

Additional observations from a re-analysis of the deposited data

Results flagged for a closer look

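In groups of 5 arrays, a value was singled out when its gap to the nearest other array exceeded Dixon's 95% critical share of the whole range, which chance gives in about 5% of groups. Of 278 gene and list values examined, 32 met this where chance gives about 14, and 18 of the 32 lay on AP5 1, the array that was compressed and shared a slide with Ro25 2. Its list means were 0.93 for NMDA receptor subunits, 3.18 for AMPA and kainate receptor subunits, 2.10 for metabotropic glutamate receptors, 3.39 for GABA-A receptor subunits, 2.27 for postsynaptic scaffold genes, 1.00 for nitric oxide signalling genes, 1.93 for voltage-gated potassium channels, 1.98 for calcium, sodium and HCN channels, −0.15 for growth factor genes, 3.84 for pan-neuronal markers, 2.36 for excitatory neuron markers and 2.90 for inhibitory neuron markers. All of these were below the other 4 AP5 arrays. Its gene values were 2.98 for Rasl11b, 0.27 for Fam107b, 1.48 for Grp, 4.65 for Egr4, −0.40 for Pbp2 and 1.34 for Fbxo9, and of these Fam107b and Pbp2 were above the other AP5 arrays.

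On Ro25 2 the log2 ratios were 0.38 for Rps6ka5, 1.79 for Cyp26b1, 2.69 for Egr3, −1.19 for Apaf1 and 2.90 for Rem2, and the list means were 3.97 for AMPA and kainate receptor subunits and 3.43 for inhibitory neuron markers, all above the other Ro25 arrays. Elsewhere the values were Fos on AP5 5 at −2.42, Synj2 on AP5 4 at −0.29, mean of cholesterol synthesis genes on AP5 5 at −0.050, Aopep on Ro25 4 at 2.79, Nab1 on Ro25 1 at −0.15, mean of NMDA receptor subunits on Ro25 4 at 1.20 and mean of cholesterol synthesis genes on Ro25 5 at 0.12. Fos was highest and the cholesterol mean lowest on number 5 in the NVP and control groups as well. No cause was tested.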

How the results depend on the processing

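The count of genes that passed (599) was 457 to 571 when 1 array was left out. It moved further with median centring in place of loess (85, 12 higher and 73 lower), the 10 arrays alone (235), slide as a fixed block (205) and the first scan day (300). Slide as a block without AP5 1, chosen after seeing the data, left 2 genes, Ifi203 and Tmem200a, both lower. In that fit no slide holds both AP5 and Ro25, and only AP5 5, linked through NVP arrays, informs the difference. Without slide 6, also chosen after seeing the data, 451 passed, 217 higher and 234 lower. The other alternatives, among them slide as a random block (655), gave 549 to 667. Of the 94 named genes that passed, 52 still passed with the slide block and 38 with median centring, all with the same direction, and 92 without AP5 1.

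Ptgs2 (−0.71) was −0.76 to −0.67 with 1 array left out and −1.21 with the scanner's processed signals. It was −0.85 in the value table, whose scale is not settled. It did not pass with median centring (−0.67), slide as a fixed block (−0.60) or slide as a fixed block without AP5 1 (−0.46). Signs turned for Egr4 with the scanner's processed signals (0.25), Upf2 in the value table (−0.043), and, with slide as a block without AP5 1, Pebp4 (0.0083), Atf4 (0.037), Csf1r (−0.20) and Adcyap1 (0.41). The cause was not tested.

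With the replicate number as a block 658 genes passed, 551 of them shared, and Ptgs2 was −0.71. Not every AP5 array correlated best with its own number: AP5 2 deviated most with Ro25 1 (0.645). Differences in genes near background, and of the size seen in Gfap, are limited by signal and by array spread.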

Other observations

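Outside the lists, some genes were named after their values were seen, for low p or as partners of the EGR factors. Nab1 and Nab2, co-repressors that bind EGR proteins and are themselves EGR targets, were lower with AP5. Nab1 had log2 ratios of −0.86, −0.69, −0.65, −0.48 and −0.51 with AP5, against −0.15, 0.16, 0.12, 0.17 and 0.10 with Ro25 (−0.71, SE 0.0853, limma adjusted p = 2.67e-05). Nab2 differed by −0.54 (SE 0.072, limma adjusted p = 0.000109). Both passed with slide as a block. Rem2, an activity-regulated GTPase that inhibits calcium channels, had 1.08, 1.82, 1.59, 1.71 and 1.58 with AP5, against 2.49, 2.90, 2.53, 2.44 and 2.43 with Ro25 (−1.003, SE 0.114, limma adjusted p = 1.68e-05), and its difference was −0.88 without AP5 1.

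The increase of lowest p was in Macrod1, an ADP-ribose hydrolase, with −0.42, −0.23, −0.29, −0.35 and −0.41 with AP5, against −0.99, −1.11, −1.06, −0.98 and −0.92 with Ro25 (0.67, SE 0.056, limma adjusted p = 4.04e-07). Csrp2, a LIM domain protein (0.68), Golm1, a Golgi membrane protein (0.56), Gstm2, a glutathione transferase (0.49), Spn, the sialoglycoprotein CD43 (0.68), and Ccdc126 (0.64) were higher too. Rhbdl3, a rhomboid-like protein (−1.36), Aopep, an aminopeptidase (−0.99), Lsm11, part of the histone mRNA processing particle (−0.85), Smyd2, a lysine methyltransferase (−0.83), Fbxo9, an F-box protein (−0.78), Lurap1 (−0.78), Rasgef1b, a Ras-family exchange factor (−0.68), and Synj2, an inositol phosphatase of the endocytic pathway (−0.67), were lower. In each of these genes the AP5 and Ro25 arrays did not overlap, and of those named in this paragraph Spn and Ccdc126 did not pass with slide as a block (limma adjusted p of 0.105 and 0.0912).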
